A study of Mus musculus with 10 samples.

Results

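Hnf4a, Maf, Esrra, Tfap2b, Tfcp2l1, Gata3 and Emx1 are 7 transcription factor genes grouped as factors of nephron segment identity. They were taken by symbol from the count table of each library, and all 7 of 7 were found among the 28808 gene symbols that every table holds. The counts are from Drop-seq, in which the RNA of a single cell is captured on a barcoded bead and counted by unique molecular identifiers (UMIs). The labels give kidney cortex and an age of 4 weeks for all 10 libraries alike. Whether this is the age at injury or at collection is not given in the sources used here. Of the 10 libraries, 1 is the control, 3 are the only ones of their day (day 1, day 2 and day 4 after injury), and 6 come as a pair for day 7, day 11 and day 14. By the labels, the injured groups differ in day alone: no kind of injury, genotype, strain or sex is given, nor whether paired libraries come from separate animals. The p-values below therefore measure only the spread between libraries, which may be technical, and tests against the control take its spread from the days that have 2 libraries.

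The nephron is a chain of epithelial segments, each with its own transporters, and sequence-specific transcription factors keep the genes of a segment switched on. Hnf4a is a nuclear receptor required for the maturation of the proximal tubule, the segment that reabsorbs most of the filtrate, and Maf is a basic leucine zipper factor. Esrra, the oestrogen-related receptor alpha, works with the coactivator Ppargc1a on genes of mitochondrial energy metabolism. Tfap2b encodes AP-2 beta, which is needed in the distal nephron, and Tfcp2l1 is a CP2 factor of the grainyhead superfamily required for the differentiation of collecting duct cells, among them the acid-base handling intercalated cells. Gata3 is a zinc finger factor of the ureteric bud and of the collecting duct that forms from it. Emx1 is a homeobox gene best known from the developing forebrain.

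The tables held 64803 barcodes and 173806985 UMIs, of which 50378 cells were used, 3398 to 6633 per library, with a median of 1252.5 to 2662 UMIs per cell. Cells were placed in a segment from marker genes that include none of the 7 factors. A cell needed at least 2 different markers of its class, more than of any other class, and at least 2 in 3 of its marker UMIs. This gave 328 to 4845 proximal cells per library, 153 to 686 cells of the thick ascending limb, 0 to 192 of the distal convoluted tubule, 156 to 499 principal cells and 38 to 125 intercalated cells. Counts were summed per library and segment where at least 20 cells were found, which left the distal convoluted tubule in 5 libraries (control, day 11 and day 14). Levels are given as UMIs of a gene per 1000000 UMIs of such a sum (UPM). The 28 listed genes of proximal function, none of them a gate marker, summed to 10434 to 39204 UPM in proximal cells and to 281 to 2264 UPM in distal cells. At most 11 barcodes were shared by any pair of libraries (the day 11 pair, 0.103% of the smaller one). The largest share was 0.195%, with 7 barcodes, for day 1 and day 11 replicate 1.

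All 7 genes were placed on GRCm38 (GENCODE M21 gene spans). Hnf4a lies at chr2:163506808-163572910 on the plus strand, Maf at chr8:115682942-115707794 on the minus strand and Esrra at chr19:6910977-6921813 on the minus strand. Tfap2b lies at chr1:19208914-19238576 and Tfcp2l1 at chr1:118627945-118685168, both on the plus strand. Gata3 lies at chr2:9857078-9890034 on the minus strand and Emx1 at chr6:85187438-85204462 on the plus strand. Genes on the opposite strand overlap Hnf4a (Hnf4aos), Maf (Gm15655), Esrra (Trmt112), Tfcp2l1 (Gm22094 and Gm28882) and Gata3 (Gm13256 and 4930412O13Rik). The sources used here do not say whether counting used the strand, so reads of such partners cannot be told apart from those of the factor. Genes on the same strand also overlap Gata3 (the protein-coding 9230102O04Rik), Hnf4a (Gm25881), Esrra (Mir6990) and Tfcp2l1 (Gm23497), and counting by strand would not separate those.

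The 250 bases before the annotated start were available for 6 of the 7 factors, from RefSeq (GRCm38.p6), with a pair of starts 40298 bases apart for Hnf4a. They are shown for the 4 factors whose window held a match to a motif searched, for Hnf4a at the downstream start, since such motifs are the letters that factors of these families are known to bind. Capitals mark matches, on either strand, to one of 7 motifs: HNF4 (CAAAGTCCA, in 0.384% of 32851 RefSeq mouse promoters of this length), ERR (CAAGGTCA, 1.33%), AP-2 (GCCNNNGGC, 13.7%), the motif of GATA factors (AGATAA, 9.99%), the MAF half-site (TGCTGA, 16.1%), homeobox (TAATTA, 4.84%) and the HNF1 half-site (GTTAAT, 6.43%). The last 4 letters of the HNF1 half-site are the first 4 of the homeobox motif, so both can match overlapping bases. The windows are chr2:163546905-163547154 on the plus strand for the downstream start of Hnf4a, chr1:19211804-19212053 on the plus strand for Tfap2b, chr1:118627695-118627944 on the plus strand for Tfcp2l1, and chr2:9878601-9878850 on the minus strand for Gata3. Each is written 5′ to 3′ along its gene.
Hnf4a: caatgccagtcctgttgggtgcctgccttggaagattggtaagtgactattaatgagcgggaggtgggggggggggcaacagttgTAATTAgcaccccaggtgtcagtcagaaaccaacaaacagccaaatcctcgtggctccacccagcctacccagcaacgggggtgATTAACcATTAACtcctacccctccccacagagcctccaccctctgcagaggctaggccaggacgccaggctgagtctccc
Tfap2b: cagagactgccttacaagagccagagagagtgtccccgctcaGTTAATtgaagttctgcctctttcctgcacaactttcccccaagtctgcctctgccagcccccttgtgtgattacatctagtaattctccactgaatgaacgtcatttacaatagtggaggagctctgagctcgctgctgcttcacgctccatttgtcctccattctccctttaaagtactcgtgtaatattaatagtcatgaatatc
Tfcp2l1: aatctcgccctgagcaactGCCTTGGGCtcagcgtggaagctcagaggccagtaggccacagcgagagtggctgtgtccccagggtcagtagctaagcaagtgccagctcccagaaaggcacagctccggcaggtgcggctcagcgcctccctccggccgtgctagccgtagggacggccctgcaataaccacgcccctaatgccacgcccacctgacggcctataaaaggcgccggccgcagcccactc
Gata3: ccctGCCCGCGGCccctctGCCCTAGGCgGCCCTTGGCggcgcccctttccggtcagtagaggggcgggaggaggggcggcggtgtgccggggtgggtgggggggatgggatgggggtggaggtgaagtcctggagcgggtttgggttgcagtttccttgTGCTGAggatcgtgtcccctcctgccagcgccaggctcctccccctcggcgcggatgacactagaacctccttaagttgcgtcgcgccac
The Hnf4a window holds 1 homeobox match and 2 HNF1 half-sites, the Tfap2b window 1 HNF1 half-site, the Tfcp2l1 window 1 AP-2 match, and the Gata3 window 3 AP-2 matches and 1 MAF half-site. The window of the upstream Hnf4a start held 1 GATA match, and those of Esrra and Emx1 held none of the 7 motifs. These are matches of letters, not measured binding, and Gata3 also overlaps the antisense gene Gm13256.

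Segment by segment, the levels of 6 of the 7 factors differed between proximal and distal cells, against 62.0% of the 12026 genes tested (quasi-likelihood test of edgeR, p adjusted over all genes by Benjamini-Hochberg, library as a block, proximal cells against the mean of the 4 distal segments on the log2 scale). Hnf4a and Maf were the proximal factors, highest in proximal cells in 10 of 10 libraries. Tfap2b was highest in the thick limb, Tfcp2l1 in intercalated cells and Gata3 in principal cells, each in 10 of 10 libraries. Emx1 was highest in the distal convoluted tubule in 5 of 5 libraries that held that segment, and Esrra was spread over all segments. By comparison, 26 of 26 proximal function genes tested were higher in proximal cells, as were 39.0% of all genes, and 19 of 20 distal function genes were lower, as were 23.0% of all genes. The 7 factors and these lists were chosen with earlier results of these data known, so the counts are a description.

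Hnf4a stood at 116 UPM in the lowest library, 166 in the median and 221 in the highest in proximal cells. Its medians elsewhere were 9.57 UPM in intercalated cells, 5.27 in principal cells, 5.06 in the thick limb and 3.64 in the distal convoluted tubule. The proximal range lies above the highest value of every distal segment, 36.7 UPM in intercalated cells. The difference was 5.25 on the log2 scale (SE 0.166, adjusted p = 2.11e-28). Outside the tubule, endothelial cells had more than distal cells, 14.8 against 5.09 UPM summed over libraries and higher in 10 of 10 libraries, while the medians of mesenchymal cells (3.56 UPM) and macrophages (1.20) were lower than the distal median (5.06). Whether the distal UMIs of Hnf4a come from free RNA was not tested.

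Maf ranged from 612 to 2275 UPM in proximal cells, with a median of 825, and its distal medians lay between 38.1 UPM in the thick limb and 62.4 in intercalated cells. No distal value came near the proximal range, the highest being 160 UPM. The difference was 4.70 on the log2 scale (SE 0.123, adjusted p = 5.13e-31). Maf was not a tubule gene alone. Macrophages had 338 to 1182 UPM with a median of 723, and proximal cells were above macrophages in only 6 of 10 libraries. Mesenchymal cells had a median of 394 UPM in 8 libraries and endothelial cells of 168 UPM, both above the distal segments.

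Within the proximal tubule, cells were placed as convoluted or straight from 4 markers each (at least 2 UMIs of one list and more than 2 times the other). Maf was higher in convoluted than in straight cells in 7 of 7 libraries with enough of both. It stood at 1484 against 551 UPM in the control, 1266 against 531 on day 4, 1177 against 1000.23 in day 7 replicate 2, 1286 against 468 and 1099 against 412 on day 11, and 1573 against 509.8 and 1487 against 468 on day 14. The smallest gap was that of day 7, where the straight value of 75 cells was the highest of the 7. The difference was 1.17 on the log2 scale (SE 0.174, adjusted p = 0.000205, edgeR, library as a block), a comparison added after the levels had been seen, in which 36.5% of 11504 genes were called. Of the other 6 factors none was called, and Hnf4a differed by -0.02 (SE 0.127). At an unadjusted p of 0.05, 3 of the 7 passed.

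**Figure D1:**
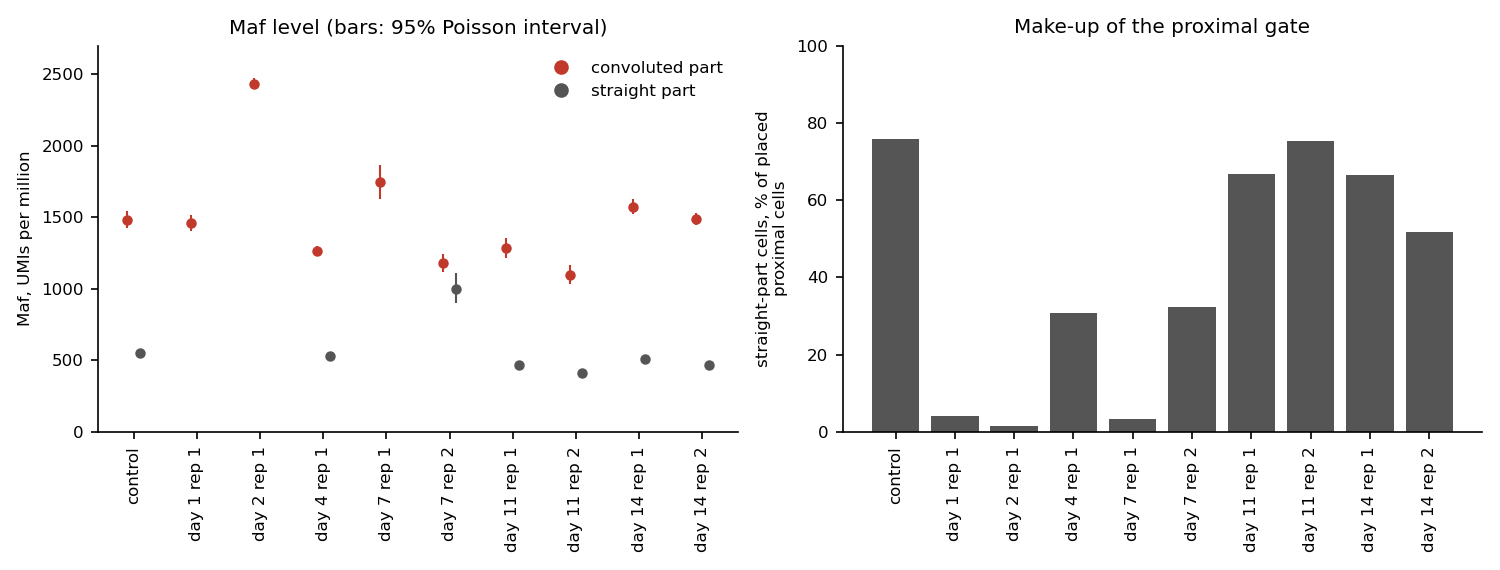
The left panel plots the Maf level (UPM, vertical axis) in convoluted-gated and straight-gated proximal cells of each library with at least 20 such cells (horizontal axis), with exact 95% Poisson intervals that cover counting error only. The convoluted value is the higher one in all 7 libraries that have both, with 1484 against 551 UPM in the control, and the bars of the right panel give straight cells as a percentage of the placed proximal cells, 75.7% in the control and 3.41 and 32.3% on day 7.

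**Figure D2:**
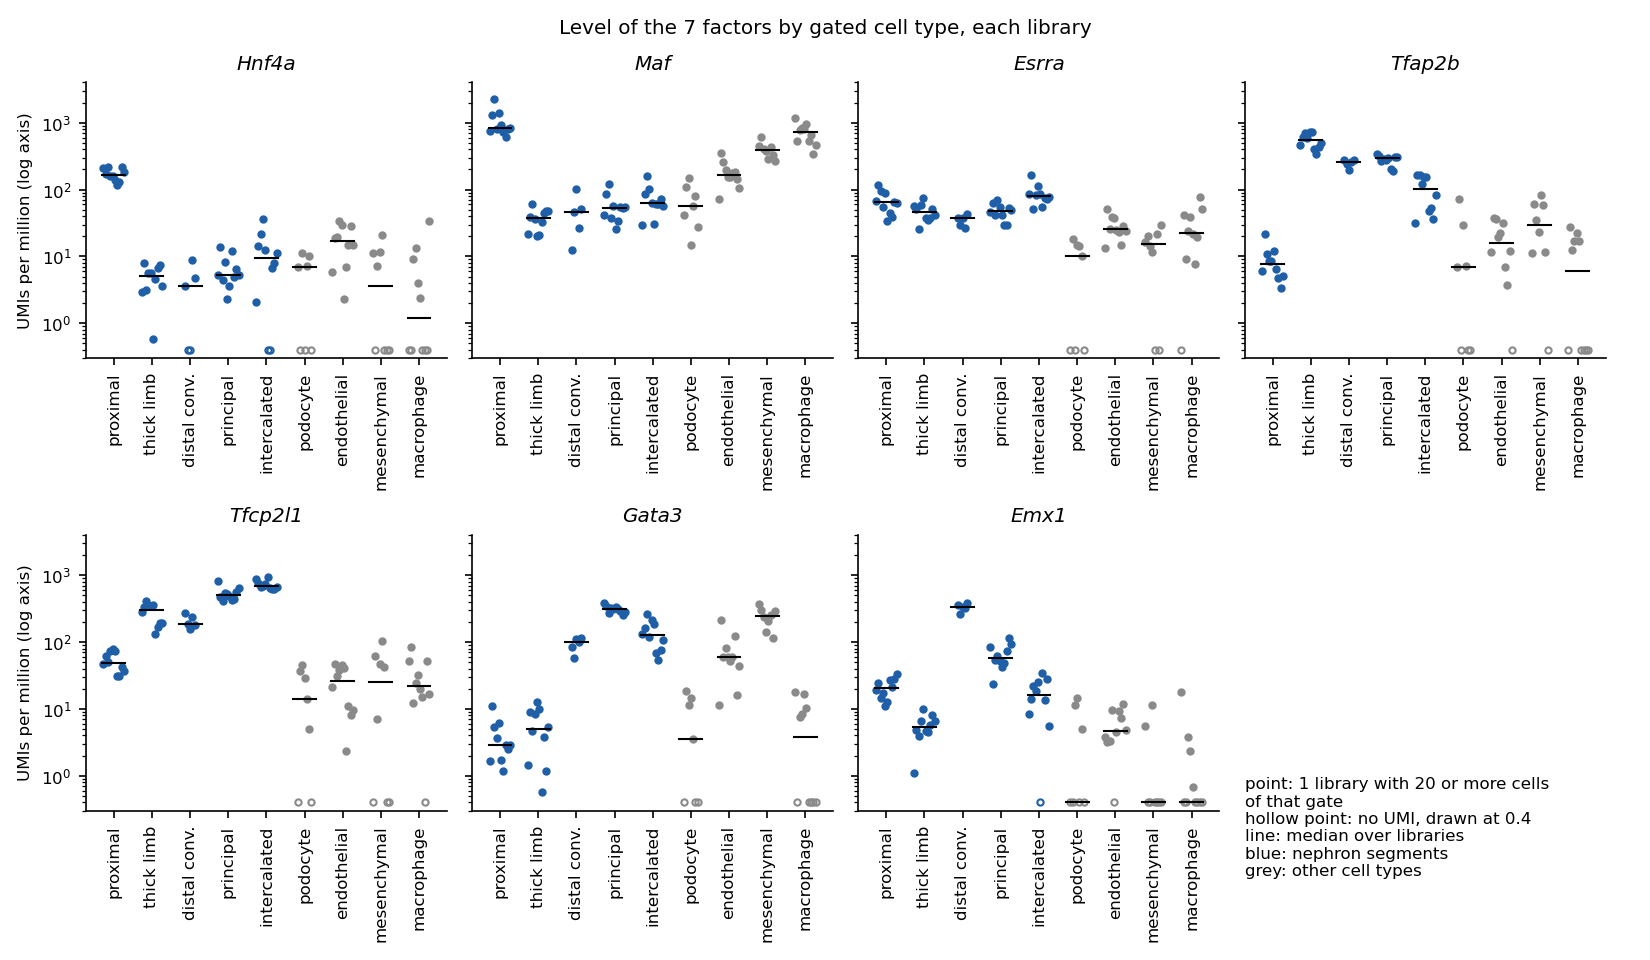
Levels of the 7 factors (UPM, log axis) in 5 nephron segments (blue) and 4 other cell types (grey), with 1 point per library, a line at the median and libraries without a UMI drawn hollow at the lower edge. Among the segments Hnf4a and Maf are highest in proximal cells, Tfap2b in the thick limb, Emx1 in the distal convoluted tubule, Gata3 in principal cells and Tfcp2l1 in intercalated cells, the ranges of Esrra overlap between neighbours in its order, and Maf and Gata3 also stand high in grey types, Maf in macrophages and Gata3 in mesenchymal cells.

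Tfap2b had 344 to 727 UPM in the thick limb with a median of 542. Principal cells followed with a median of 292 UPM and the distal convoluted tubule with 262, then intercalated cells with 102 and proximal cells with 7.57. The proximal range (3.35 to 21.6 UPM) lay below every distal value. Proximal cells were 4.73 lower on the log2 scale (log2 difference -4.73, SE 0.166, adjusted p = 8.88e-27), and thick limb cells were 1.01 above principal cells (SE 0.145, adjusted p = 2.96e-07). The distal convoluted tubule and principal cells, neighbours in this order, did not differ beyond their spread (0.33, SE 0.200, adjusted p = 0.285). Proximal values were below endothelial ones (6.86 against 20.1 UPM, summed over libraries), with endothelial cells higher in 8 of 10 libraries. The proximal median was near those of podocytes (6.99 UPM) and macrophages (6.13), and the part of free RNA in it was not tested.

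Tfcp2l1 was highest in intercalated cells, at 619 to 954 UPM with a median of 687. Its medians were 506 UPM in principal cells, 305 in the thick limb, 187 in the distal convoluted tubule and 48.8 in proximal cells. The proximal range, 30.6 to 79.4 UPM, did not overlap that of any distal segment. The log2 difference of proximal against distal cells was -2.67 (SE 0.110, adjusted p = 2.15e-24). Principal cells were below intercalated cells by a small amount (-0.37, SE 0.116, adjusted p = 0.0166, not called with no library block, -0.38, or in the control and day 14 libraries alone, -0.16), and the thick limb and the distal convoluted tubule did not differ beyond their spread (0.12, SE 0.163, adjusted p = 0.745). In proximal cells Tfcp2l1 was above its level in endothelial cells, at 47.7 against 25.1 UPM summed over libraries and higher in 10 of 10 libraries.

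Gata3 had 252 to 381 UPM in principal cells with a median of 314. Intercalated cells had a median of 127 UPM and the distal convoluted tubule of 100.5, whereas the thick limb had 4.98 and proximal cells 2.85. Its boundary therefore ran between the thick limb and the distal convoluted tubule rather than between proximal and distal cells. The log2 difference of proximal cells against the 4 distal segments was -4.05 (SE 0.216, adjusted p = 2.13e-20). Principal cells were 1.32 above intercalated cells (SE 0.210, adjusted p = 4.52e-06). Intercalated cells and the distal convoluted tubule did not differ beyond their spread (0.05, SE 0.299, adjusted p = 0.962), nor did proximal cells and the thick limb (-0.23, SE 0.296, adjusted p = 0.529). Mesenchymal cells also held Gata3, with 115 to 376 UPM and a median of 243 in 8 libraries, and endothelial cells had a median of 59.3.

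Emx1 had 263 to 383 UPM in the distal convoluted tubule with a median of 333, against medians of 57.9 UPM in principal cells, 20.3 in proximal cells, 16.3 in intercalated cells and 5.31 in the thick limb. The lowest library of the distal convoluted tubule was above the highest of principal cells (115 UPM). The distal convoluted tubule was 2.27 above principal cells on the log2 scale (SE 0.240, adjusted p = 8.96e-10), and proximal cells were 2.36 above the thick limb (SE 0.245, adjusted p = 3.43e-11). Proximal cells were also above intercalated cells (0.94, SE 0.351, adjusted p = 0.0226), with overlapping ranges. That call was lost with DESeq2's size factors (0.73), with DESeq2 (0.68), with library totals alone (0.49), with a mitochondrial limit of 25% (0.75) and with no library block (0.80). Over all 4 distal segments together, the test of proximal against distal cells gave -0.37 (SE 0.181, adjusted p = 0.0736) and was not called. It was called with library totals alone (-0.71), when 7 of 7 factors were, with DESeq2's size factors (-0.51), with DESeq2 (-0.55), with no doublet removal (-0.45), with a mitochondrial limit of 25% (-0.44), and without any 1 of 5 libraries, the control, day 1, day 7 replicate 2, day 11 replicate 1 or day 14 replicate 2 (-0.46 to -0.50).

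Esrra was the least segment-bound of the 7. Its medians were 80.5 UPM in intercalated cells, 64.3 in proximal cells, 47.4 in principal cells, 46.2 in the thick limb and 37.0 in the distal convoluted tubule. It was highest in intercalated cells in 9 of 10 libraries and in proximal cells in the other one, and all neighbouring ranges overlap, while the range of intercalated cells (50.8 to 163 UPM) lay above that of the distal convoluted tubule (26.2 to 42.5). The test called the distal convoluted tubule below intercalated cells (-0.98, SE 0.278, adjusted p = 0.0106), a call lost without the control (-0.96), without day 14 replicate 1 (-0.88) and with no library block (-0.88). Principal cells (-0.73, SE 0.186) and the thick limb (-0.71, SE 0.182) were below intercalated cells too. Proximal cells were 0.64 above the mean of the distal segments (SE 0.121, adjusted p = 1.4e-05), a smaller value (0.34) with library totals alone. Proximal and intercalated cells did not differ beyond their spread (0.03, SE 0.175, adjusted p = 0.897). All 10 libraries had more Esrra in proximal than in endothelial cells, 64.2 against 26.3 UPM summed over libraries.

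Shares of single cells with a UMI were also read. Each cell was thinned to 1000 UMIs, leaving out shallower cells, so that libraries of unequal depth could be compared. Hnf4a then had a UMI in 10.6 to 18.6% of proximal cells, against 0 to 4.44% of endothelial cells, a type that should lack it. Maf had a UMI in 40.8 to 86.6% of proximal cells, 7.01 to 24.3% of endothelial cells and 23.5 to 60.6% of macrophages, so the ranges of proximal cells and macrophages overlap. Tfap2b had one in 27.0 to 48.7% of thick limb cells, 17.3 to 31.6% of principal cells and 0 to 5.74% of endothelial cells. Tfcp2l1 had one in 36.8 to 66.7% of intercalated cells, 28.0 to 56.6% of principal cells and 0 to 6.67% of endothelial cells. For both of these factors the ranges of the 2 segments overlap and those of endothelial cells lie below. Gata3 had one in 19.7 to 30.3% of principal cells, 3.45 to 24.2% of intercalated cells, 4.55 to 28.2% of mesenchymal cells and 0 to 1.89% of macrophages. Emx1 had one in 16.9 to 37.9% of cells of the distal convoluted tubule, above the 1.99 to 9.51% of principal cells and the 0 to 1.90% of endothelial cells. Cells with a UMI of Hnf4a together with one of Tfap2b or Gata3 made up 0 to 0.489% of the proximal cells of a library. The highest of these shares was 3 of 614 cells on day 1 (exact 95% interval 0.101 to 1.42%), and on day 7 it was 0 of 265 cells in replicate 1 and 2 of 488 in replicate 2. In proximal cells Tfap2b alone had a UMI in 0.295 to 4.07% and Gata3 in 0 to 1.47%, and no expected joint share was computed. With single shares this low, the joint share cannot show whether the factors exclude each other. The median depth of proximal cells before thinning was 1380.5 to 2932 UMIs and that of endothelial cells 918 to 1507.

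Over 74 sums of 12 gates and 10 libraries with at least 50 cells each, and among 11541 genes, the genes whose levels ran most like a factor's were these, by Pearson's r of the log2 level. Hnf4a was most like Igsf11 (0.946), Tmigd1 (0.938) and Mettl7b (0.933), and Maf most like Gatm (0.870), Adap2 (0.859) and Lipa (0.840). Tfap2b was most like Wfdc2 (0.946), Kctd1 (0.913) and Sim1 (0.905), and Tfcp2l1 most like Tmprss2 (0.941), Ckmt1 (0.931) and Rragd (0.925). Gata3 was most like its antisense neighbour Gm13256 (0.850), with which it may share reads, then Cav1 (0.802) and Cav2 (0.795). Emx1 was most like Lhx1 (0.878), Kl (0.858) and Calb1 (0.842), and Esrra, with the lowest values, most like Gclc (0.755), Clcn5 (0.726) and Sgk2 (0.715). Among the factors themselves r was 0.777 for Tfap2b with Tfcp2l1, 0.652 for Esrra with Tfcp2l1, 0.628 for Hnf4a with Maf and -0.684 for Maf with Tfap2b. The sums share libraries and cell types, so these values are a description and have no test.

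A list of 29 other factors of kidney segments held 2 gate markers (Foxi1 and Pax8). It was chosen by known roles, but with earlier results of these data known. The list went both ways: 9 were higher in proximal cells and 12 lower, and 8 did not pass the test, 21 of 29 called against the 62.0% of all genes (median difference -0.30, against 0.15 over all genes tested). The factors that differed most were Tfap2a, the close relative of Tfap2b (-4.69, SE 0.220, adjusted p = 2.5e-22), Grhl2, a grainyhead-like factor (-4.65, SE 0.303), and Sim1 (-4.57, SE 0.185) on the distal side. On the proximal side they were Irx3 (4.77, SE 0.558, adjusted p = 1.45e-09), Hnf4g, the close relative of Hnf4a (4.63, SE 0.425), and Nr1h4, the bile acid receptor gene (3.72, SE 0.121).

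The second question was how the factors changed with the days after injury inside the segments. Here the scale of comparison matters. In the control, mitochondrial UMIs made up 22.4% of the proximal sum and the 50 largest genes 41.2%, against 5.23 and 6.04% and 18.7 and 19.6% in the day 7 libraries. Levels by day are therefore given as UPM of totals scaled by TMM, edgeR's trimmed mean method, which sets the typical gene to no change. With library totals alone, the median of all genes on day 7 against the control was 0.90 on the log2 scale in proximal cells. It was 0.67 in distal cells and 0.87 in all tubule cells. With TMM the proximal, distal and tubule medians were 0.04, 0.01 and 0.04. A fall with TMM smaller than about the gap between these medians is no fall in the share of all UMIs. Days 1, 2 and 4 have 1 library each and entered no test of groups. Both day 11 tables differ from the others as deposited. They reach down to 300 genes per barcode, against 500, and hold 7 and 9 barcodes that end in N, against 132 to 471. Changes to or from day 11 cannot be told apart from this difference between the tables.

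On day 7 in proximal cells, Hnf4a, Emx1 and Esrra were lower than in the control, 3 of 7 factors called against 35.7% of the 14453 genes tested, and 3 of 7 lower against 18.1%. Hnf4a had 282 TMM-scaled UPM in the control and 115 and 104 in the day 7 libraries. Both day 7 values were the lowest of the 10 libraries on this scale. Before scaling they were 159.9 and 139.8 UPM, against 211 in the control, and the lowest were those of day 11 (116 and 128). The change was -1.37 on the log2 scale (SE 0.222, adjusted p = 0.000689). Scaled by library totals alone it was -0.50 and not called, and the share of thinned cells with an Hnf4a UMI was 12.5 and 17.0% on day 7 against 18.0% in the control (without thinning 26.5 and 39.4% against 47.7%). In convoluted-gated cells alone the change was -1.22 and was called. Straight cells made up 75.7% of the placed proximal cells of the control but 3.41 and 32.3% of those of day 7. A proximal cell that had lost the gate's markers would leave the proximal set. Tubule cells of no segment made up 0.251% of the tubule cells of the control and 36.4 and 25.2% on day 7. Hnf4a in that gate ran from 23.8 to 64.4 UPM over 7 libraries. The part of cells lost from the gate in the proximal changes by day was not tested.

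Emx1 stood at 25.5 TMM-scaled UPM in proximal cells of the control and at 7.91 and 9.51 on day 7, again the lowest of all libraries. The change was -1.50 (SE 0.282, adjusted p = 0.00181). Neither the value with library totals alone (-0.64) nor that in convoluted-gated cells (-1.10) was called. Esrra stood at 91.8 in the control and at 63.3 and 24.9 on day 7, so that replicates differed more than 2 times. Its change of -1.19 (SE 0.374, adjusted p = 0.0278) was not called without day 7 replicate 2 (-0.53), with library totals alone (-0.32) or in convoluted-gated cells (-1.43). Maf differed by -0.26 (SE 0.258, adjusted p = 0.463) and lay at 1009 in the control and at 1010.4 and 679.7 on day 7. In convoluted-gated cells alone Maf lay at 1846 in the control and at 1386 and 919.7 on day 7, a larger change (-0.68, SE 0.281) that was not called either. Tfap2b, Tfcp2l1 and Gata3, all low in proximal cells, were not called. Tfcp2l1 had 63.7 in the control and 57.1 and 55.5 on day 7, and with library totals alone it was called as higher (0.69), the 1 factor called of the 7. Macrophage markers in the proximal sums added up to 9.17 UPM in the control and to 147 and 45.6 on day 7, and their part in these changes was not tested.

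**Figure D3:**
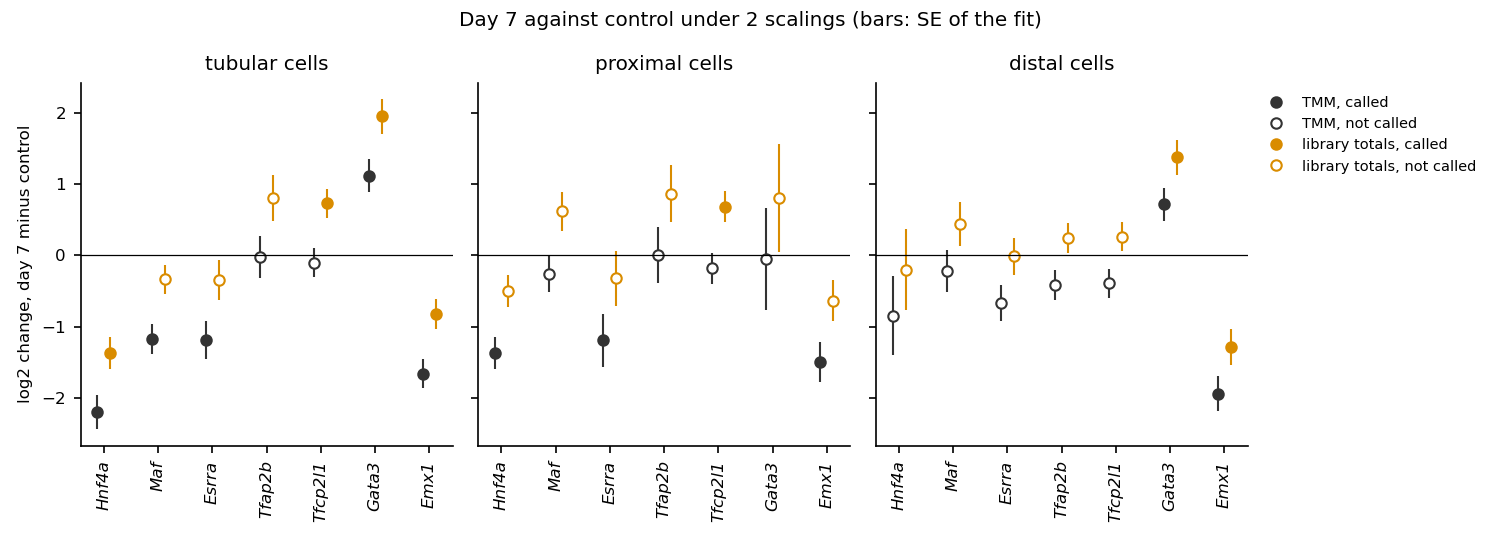
Change of each factor on day 7 against the control (log2, vertical axis) in tubular, proximal and distal sums, scaled by TMM (dark) or by library totals alone (orange), with bars of 1 SE and filled points where the adjusted p was under 0.05. Hnf4a in proximal cells moves from -1.37 to -0.50 and Gata3 in distal cells from 0.72 to 1.38, and Emx1 is below 0 in all panels under both scalings.

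Hnf4a in proximal cells had 143 and 155 TMM-scaled UPM on day 11 and 264 and 213 on day 14. Day 11 was still below the control (-0.92, SE 0.218, adjusted p = 0.0136), and this was not called without either day 11 library (-0.86 and -0.98) or in convoluted-gated cells alone (-0.77). On day 14 Hnf4a did not differ from the control beyond the spread (-0.24, SE 0.221, adjusted p = 0.530) and was above day 11 (0.68, SE 0.184, adjusted p = 0.0426), a call lost without any of the 4 libraries (0.52 to 0.82), with DESeq2's size factors (0.63), with 3 gate markers (0.66) and in convoluted-gated cells alone (0.46). The step from day 7 to day 11 was 0.45 (SE 0.192, adjusted p = 0.0875) and turned to -0.29 with library totals alone. Tfcp2l1 was the other factor below control on day 11, with 37.6 in both libraries against 63.7 (-0.76, SE 0.211, adjusted p = 0.0273), lost without either library of day 11 (-0.76 both) or of day 14 (-0.76 both), with DESeq2 (-0.74) and in convoluted-gated cells alone (-0.76). In all, 2 of 7 factors were called on day 11 against control (20.9% of genes).

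Emx1 was the factor that rose most from day 7 to day 11 in proximal cells, to 32.9 and 26.0 TMM-scaled UPM (1.70, SE 0.257, adjusted p = 0.000383). It was called together with Tfcp2l1, which was lower (-0.58, SE 0.191, adjusted p = 0.0346, lost without any of the 6 libraries of days 7, 11 and 14, -0.56 to -0.61, with DESeq2, -0.57, and in convoluted-gated cells alone, -0.31), 2 of 7 against 36.2% of genes. Under library totals Emx1 (0.97) was still higher, while Tfcp2l1 (-1.31), Tfap2b (-0.95) and Maf (-0.79) were lower. Hnf4a alone was called from day 11 to day 14 (9.21% of genes). On day 14 none of the 7 differed from the control in proximal cells (8.59% of genes), with 1 at an unadjusted p under 0.05 and 0 called by DESeq2.

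Maf stood apart in the single library of day 2. It had 1108 TMM-scaled UPM in proximal cells on day 1, 2148 on day 2 and 671 on day 4. The day 2 value was the highest of the 10 libraries, and before scaling it was 2275 UPM (exact 95% Poisson interval 2242 to 2309). Straight cells, where Maf is lower, were 1.53% of the placed proximal cells on day 2 and 75.7% in the control. In convoluted cells alone day 2 was also the highest of the 10 libraries, at 2394 TMM-scaled UPM against 1846 in the control (2434 against 1484 UPM before scaling), a smaller gap than in all proximal cells. Hnf4a had 145, 209 and 133 on these days, all below the control. Gata3 and Tfap2b had their highest proximal values on day 1, 10.98 UPM (interval 7.35 to 15.8) and 21.6 UPM (16.3 to 28.0), in the library in which 30.1% of the cells had class markers but met the rule of no class (7.89% in the control). Neutrophil markers were at 61.7 UPM in the same proximal sum against 3.47 in the control, and their part in these values was not tested.

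**Figure D4:**
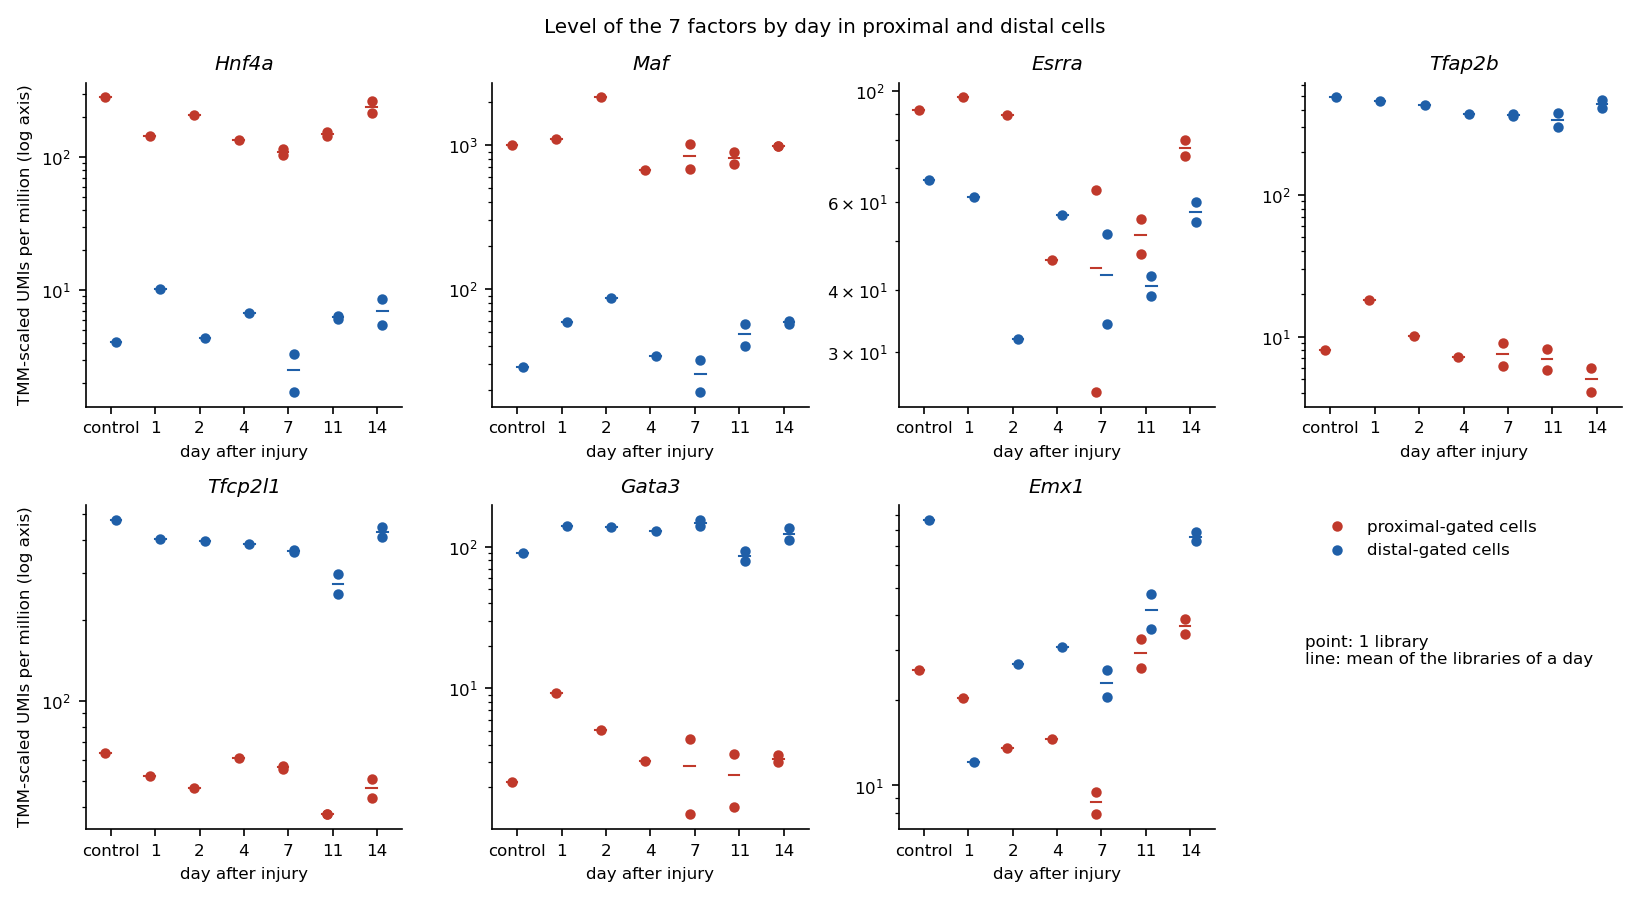
TMM-scaled levels (UPM, log axis) of the 7 factors by day after injury (horizontal axis) in proximal and distal sums, with 1 point per library and a short line at the mean of each day. Hnf4a in proximal cells stands at 282 in the control and at 104 and 115 on day 7, Emx1 in distal cells at 86.9 and then 20.5 and 25.6, and Maf in proximal cells is highest on day 2, at 2148.

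In distal cells, Emx1 and Gata3 were called on day 7 against the control, 2 of 7 factors against 25.4% of the 13056 genes tested. Emx1 had 86.9 TMM-scaled UPM in the control, 12.1, 26.8 and 30.8 on days 1, 2 and 4, 25.6 and 20.5 at day 7, 35.8 and 47.7 at day 11, and 78.5 and 72.9 at day 14. All 9 libraries of injured kidneys were below the control, those of day 14 by the least. The change was -1.94 on day 7 (SE 0.242, adjusted p = 1.99e-05; -1.29 with library totals alone, also called) and -1.07 on day 11 (SE 0.243, adjusted p = 0.00851, not called without day 11 replicate 1, -0.86, or with a mitochondrial limit of 25%, -0.71). From day 7 to day 11 it rose by 0.87 (SE 0.233, adjusted p = 0.00947, not called without day 7 replicate 2 or day 11 replicate 2, 0.69 and 0.66) and from day 11 to day 14 by 0.87 again (SE 0.216, adjusted p = 0.0176, lost without any of the 4 libraries, 0.66 to 1.08). DESeq2 called Emx1 on day 7 (-1.93) but not the 3 later changes (-1.07, 0.86 and 0.84), and library totals alone lost the step from day 7 to day 11 (0.38).

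The makeup of the distal cells moved with Emx1. The distal convoluted tubule, where Emx1 is highest, gave 192 cells in the control, 5, 1 and 12 on days 1, 2 and 4, 0 and 10 in the day 7 pair, 63 and 48 at day 11 and 67 and 59 at day 14. Where that segment could be summed, Emx1 was at 357 UPM in the control, 263 and 333 on day 11 and 328 and 383 on day 14, so both day 11 values were below the control and those of day 14 on either side of it. Fewer cells of that segment and less Emx1 per cell are mixed in the distal sum, and a cell that had lost the segment's markers would leave the gate. In principal-gated cells alone, an analysis added after the data were seen, Emx1 had 95.7 TMM-scaled UPM in the control and 44.0 and 36.9 on day 7, a change of -1.26 (SE 0.312) that was also called. The day 11 change (-0.64) and the step from day 7 to day 11 (0.62) were not called there, and the step from day 11 to day 14 (0.96) was. In the thick limb alone, where Emx1 was at 1.34 in the control and at 7.65 and 3.67 on day 7, the change was 1.87 and not called. Emx1 is low there: its median over libraries was 5.31 UPM before scaling, near the 4.71 UPM of endothelial cells.

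Gata3 had 89.7 TMM-scaled UPM in the distal sum of the control, 139, 137 and 130 on days 1, 2 and 4, 140 and 155 at day 7, 78.6 and 92.8 at day 11, and 112 and 135 at day 14. Both day 7 libraries were above the control. The change was 0.72 (SE 0.233, adjusted p = 0.0312; 1.38 with library totals alone), and it was not called without day 7 replicate 2 or any 1 library of day 11 or 14 (0.64 to 0.72), by DESeq2 (0.73), with no count filter (0.66), with a mitochondrial limit of 25% (0.54) or with only the groups compared (0.73). From day 7 to day 11 Gata3 was lower by -0.79 on the log2 scale (SE 0.195, adjusted p = 0.00556, not called without day 11 replicate 1, -0.67). Principal cells, where Gata3 is highest, made up 20.8% of the distal cells of the control and 58.4 and 54.7% on day 7. In principal-gated cells alone the direction turned: Gata3 had 435.7 TMM-scaled UPM in the control and 264 and 292 on day 7, a change of -0.64 (SE 0.247) that was not called. The step from day 7 to day 11 was 0.17 there, also not called. In thick-limb-gated cells alone, where Gata3 is low, it had 1.78 TMM-scaled UPM in the control, 9.83 and 7.79 on day 7 and 0.652 and 4.38 on day 11. The changes there were 2.22 (SE 0.824) on day 7 and -1.99 (SE 0.848) from day 7 to day 11, neither called. The part of the cell makeup in the distal change of Gata3 was not tested.

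**Figure D5:**
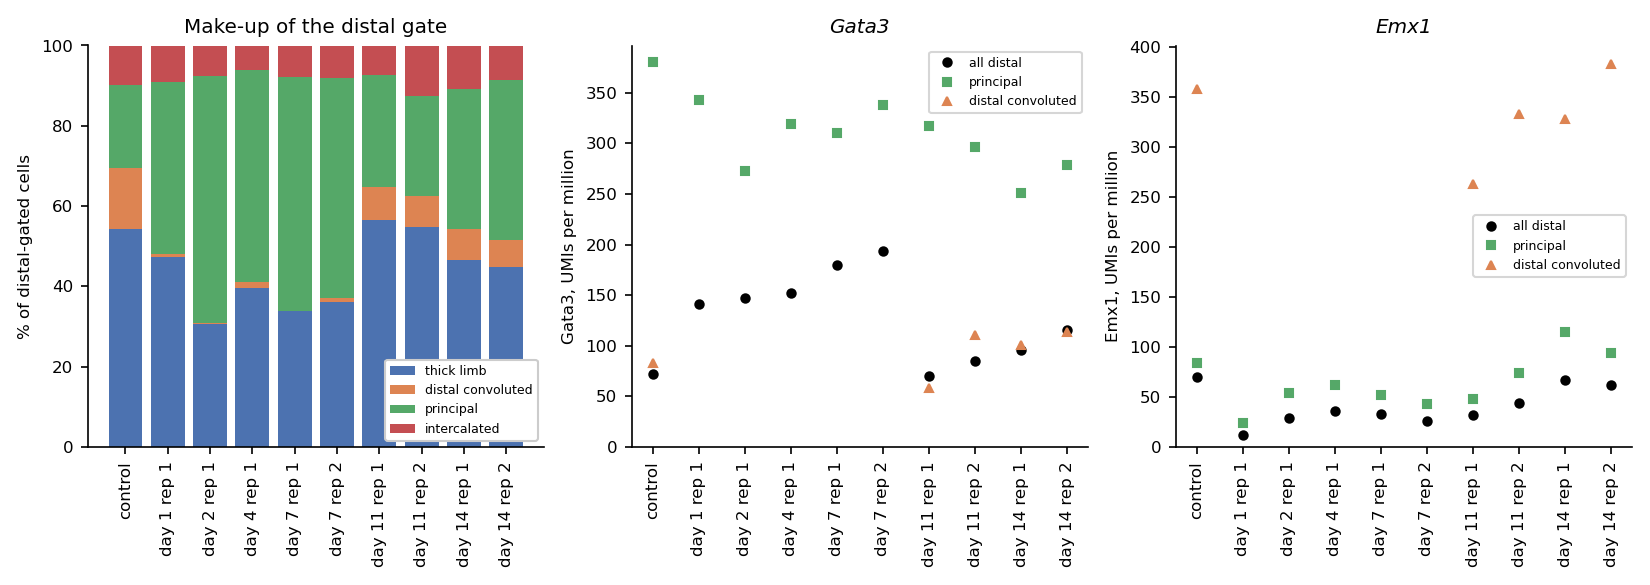
The bars of the left panel give the 4 distal segments as percentages of the distal-gated cells of each library, and the other panels plot Gata3 and Emx1 (UPM before TMM scaling, vertical axis) in all distal cells, principal cells and cells of the distal convoluted tubule. Principal cells make up 20.8% of distal cells in the control and 58.4 and 54.7% on day 7, Gata3 is at 72.2 UPM in all distal cells of the control and at 179 and 194 on day 7, and in principal cells at 381 and then 311 and 338.

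Tfcp2l1 in distal cells was below the control on day 11, at 251 and 297 TMM-scaled UPM against 476 (-0.80, SE 0.200, adjusted p = 0.0144, not called without either day 11 library, -0.67 and -0.93). With Emx1 this made 2 of 7 factors against 14.2% of genes. In principal-gated cells alone Tfcp2l1 was already lower on day 7, at 446 and 422 against 939.6 (-1.11, SE 0.232), and on day 11, at 437 and 443 (-1.09, SE 0.238), both called. In thick-limb-gated cells alone it had 344 in the control, 269.8 and 285 on day 7 and 154 and 190.5 on day 11. There the day 7 change was not called (-0.31), and day 11 was lower than the control (-1.004, SE 0.216) and than day 7 (-0.70, SE 0.188), both called. The difference between the gates in timing was not tested. Tfcp2l1 was higher again on day 14 in the distal sum, at 409.5 and 445 (0.64 above day 11, SE 0.170, adjusted p = 0.0257, lost without any of the 4 libraries, 0.52 to 0.77, with library totals alone, 0.56, and in principal-gated or thick-limb-gated cells alone, 0.64 and 0.43), with Emx1 2 of 7 against 8.77%. Tfap2b was called on no day in the distal sum: it had 489 in the control, 359 and 373 at day 7, 380 and 299 at day 11 and 408 and 465 at day 14. In the thick limb alone, its highest segment, it had 572 in the control and 550.4 and 574 on day 7, a change of -0.02 that was not called. In principal-gated cells alone it had 384 in the control, 237 and 255 at day 7, 209 and 194 at day 11 and 349.7 and 354 at day 14. There the day 7 change (-0.64) was not called, while the day 11 change against the control (-0.93, SE 0.258) and the step up from day 11 to day 14 (0.80, SE 0.221) were. On day 14 none of the 7 differed from the control in distal cells (4.72% of genes), with 1 at an unadjusted p under 0.05 and 0 called by DESeq2. That factor was Maf, at 57.7 and 60.2 against 28.8 (1.03, SE 0.292, adjusted p = 0.0540), which was called with library totals alone (1.12), with no count filter (0.96), with 3 gate markers (1.07), with only the groups compared (1.01) and without either day 7 library (1.03 both). The 12 proximal gate markers summed to 120.5 UPM in the distal sum of the control and to 336 and 359 on day 14, and the part of proximal RNA in the Maf value was not tested.

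From day 7 to day 11, 4 of 7 factors were called in distal cells (31.1% of genes): Emx1 and Gata3, as given, and Maf and Hnf4a. Maf rose from 32.2 and 19.3 TMM-scaled UPM to 40.2 and 57.3 (0.96, SE 0.262, adjusted p = 0.0104, not called without day 7 replicate 2 or day 11 replicate 2, 0.58 and 0.70, nor in principal-gated cells alone, 0.44, but called in thick-limb-gated cells alone, 1.44). Hnf4a went from 3.31 and 1.72 to 6.11 and 6.44 (1.46, SE 0.535, adjusted p = 0.0487, not called without any 1 of 7 libraries, 0.91 to 1.50, by DESeq2, 1.38, or in principal-gated or thick-limb-gated cells alone, 1.67 and 1.82), far below its proximal level. The distal sums of all 10 libraries together held 171 UMIs of Hnf4a, at 5.09 UPM against 14.8 in endothelial cells. Under library totals Gata3 (-1.28), Tfcp2l1 (-0.90) and Tfap2b (-0.60) were called, all lower, and Emx1 (0.38), Maf (0.47) and Hnf4a (0.97) were not. The 12 proximal gate markers summed to 53.3 and 36.0 UPM in the distal sums of day 7 and to 207 and 408 in those of day 11. Of 26 proximal function genes, 23 were higher on day 11 than on day 7 there (median 3.35), against 2174 of 13056 genes. The part of proximal RNA in the distal rise of Maf and Hnf4a was not tested.

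In a test of the difference itself, proximal against distal change, 1 of 7 factors was called from day 7 to day 11 (13.7% of 14253 genes). This was Maf, whose proximal change was 0.93 lower than its distal change (difference -0.93, SE 0.237, adjusted p = 0.00901, not called without day 11 replicate 2, -0.49, or by DESeq2, -0.96). Straight cells made up 3.41 and 32.3% of the placed proximal cells on day 7 and 66.6 and 75.2% on day 11, and in convoluted-gated cells alone the proximal change of Maf was 0.29 (SE 0.235, not called) in place of -0.043. The part of this makeup in the difference was not tested. For day 7 against the control it called 0 of 7 (22.5% of genes), with 1 at an unadjusted p under 0.05 and 0 by DESeq2, so no factor was shown to differ between proximal and distal cells in its change by day 7.

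Over all tubule cells together, 5 of 7 factors were called on day 7, against 35.8% of 15707 genes. Hnf4a went from 170 TMM-scaled UPM in the control to 33.4 and 40.0 (-2.20, SE 0.242, adjusted p = 7.99e-05), Maf from 612 to 288 and 254 (-1.18, SE 0.207), Esrra from 78.7 to 44.3 and 26.1 (-1.18, SE 0.267), Emx1 from 46.5 to 15.5 and 14.1 (-1.66, SE 0.205), and Gata3 from 33.5 to 70.3 and 75.3 (1.12, SE 0.232). Tfap2b (-0.03) and Tfcp2l1 (-0.10) were not called. With library totals alone, Hnf4a (-1.37), Emx1 (-0.83) and Gata3 (1.95) were still called, Maf and Esrra (-0.34 each) were not, and Tfcp2l1 was called as higher (0.73). In these sums proximal cells made up 73.3% of the tubule cells of the control and 23.0 and 27.7% on day 7, and tubule cells of no segment 0.251% and then 36.4 and 25.2%, so fewer proximal cells and less of a factor per cell cannot be told apart. From day 7 to day 11, 6 of 7 were called (43.2% of genes): Hnf4a (1.60), Maf (1.17) and Emx1 (1.15) were higher, and Gata3 (-1.47), Tfcp2l1 (-0.93) and Tfap2b (-0.83) lower. The Tfap2b call was lost without day 7 replicate 1 (-0.82) or day 11 replicate 2 (-0.49). With library totals alone Hnf4a (0.80), Gata3 (-2.27), Tfcp2l1 (-1.73) and Tfap2b (-1.62) were called, and Maf (0.37) and Emx1 (0.35) were not. On day 11 against the control only Tfcp2l1 was called (-1.03, 16.6% of genes, not called without day 11 replicate 2, -1.001), from day 11 to day 14 only Hnf4a (0.89, 11.1%, lost without any of the 4 libraries, 0.70 to 1.11), and on day 14 against the control 0 of 7 (6.65%), with 3 at an unadjusted p under 0.05 and 2 by DESeq2.

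Lists of genes that carry out segment functions were read in the same fits. They were chosen by known roles but with earlier results of these data known, so their counts are a description. Of 20 energy genes of the kind Esrra acts on, 20 were lower and 0 higher in all tubule cells on day 7 against the control (median -1.18, against 0.04 over all genes, of which 18.8% were lower). Among them Acadm, of fatty acid oxidation, changed in all tubule cells by -2.78 (SE 0.222, adjusted p = 1.4e-05), Cycs, the gene of cytochrome c, by -2.05, Sod2 of mitochondrial antioxidant defence by -1.47 and Acadvl by -1.37. With library totals alone 4 of 20 were lower, against 1063 of 15707 genes. In proximal cells alone 12 of 20 were lower (median -0.72, with 18.1% of all genes lower). With library totals alone 2 were lower and 2 higher there, against 786 lower and 6476 higher of 14453 genes. The energy genes also differed between the proximal parts. In convoluted against straight cells 15 of 20 were lower and 1 higher (median -0.45), against 1985 lower and 2210 higher of 11504 genes. The straight share of the placed proximal cells was 75.7% in the control and 3.41 and 32.3% on day 7. In distal cells 20 of 20 were lower (median -1.39, with 13.1% of all genes lower). With library totals alone 14 were lower there, against 705 of 13056 genes. In the thick limb 18 of 20 were higher and 0 lower than in principal cells, against 1871 higher and 1725 lower of 12026 genes. In the distal convoluted tubule 10 were higher and 0 lower than in principal cells, against 850 and 1339. Principal cells made up 20.8% of the distal cells of the control and 58.4 and 54.7% on day 7. The part of this makeup in the distal change was not tested.

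Of 28 proximal function genes, 25 were lower and 1 higher in all tubule cells on day 7 (median -3.06), where 18.8% of all genes were lower. Proximal cells made up 73.3% of the tubule cells of the control and 23.0 and 27.7% on day 7. In proximal cells 24 were lower and 1 higher (median -2.33), where 18.1% of all genes were lower. With library totals alone 22 were lower and 2 higher there, against 786 lower and 6476 higher of 14453 genes. Hpd, of tyrosine breakdown, changed by -6.58 in all tubule cells (SE 1.03, adjusted p = 0.000729) and by -6.02 in proximal cells. The cytochrome Cyp4b1 changed by -4.51 in all tubule cells and -3.63 in proximal cells, and Pck1 and G6pc, enzymes of glucose production, by -4.12 and -4.05 against -3.16 and -3.04. The proximal function genes were higher again from day 7 to day 11 in proximal cells, 25 of 28 (median 2.29, against -0.09 over all genes, of which 18.1% were higher), and so were 15 of the 20 energy genes (median 1.24). Of the proximal function genes, 14 of 28 were lower and 3 higher in convoluted than in straight cells (median -0.76), against 1985 lower and 2210 higher of 11504 genes. Straight cells were 66.6 and 75.2% of the placed proximal cells on day 11. Macrophage markers in the proximal sums, 9.17 UPM in the control and 147 and 45.6 on day 7, stood at 18.7 and 22.4 on day 11. The part of the makeup of the tubule and proximal sums, and of macrophage RNA, in the changes of both lists was not tested. Of 20 distal function genes, 16 were lower and 0 higher in distal cells on day 7 (median -1.13, with 13.1% of all genes lower), with the growth factor gene Egf at -5.86, the kinase gene Wnk1 at -3.47, the calcium-binding Calb1 at -2.75 and Bsnd, a chloride channel subunit, at -2.08. With library totals alone 9 were lower and 3 higher, against 705 lower and 5206 higher of 13056 genes. The distal sums of day 7 held 0 and 10 cells of the distal convoluted tubule, against 192 in the control, and 58.4 and 54.7% principal cells, against 20.8%. Of the 20 genes, 10 were higher and 4 lower in the distal convoluted tubule than in principal cells, against 850 higher and 1339 lower of 12026 genes. The part of the makeup in the change of the distal function genes was not tested.

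The proximal function genes moved in the distal sums too, where 26 were tested. On day 7, 18 were lower than in the control (median -1.71), against 1707 of all 13056 genes. From day 7 to day 11, 23 were higher (median 3.35), against 2174 of all genes. Against the control 14 were higher and 0 lower on day 11 (median 1.41), where 800 of all genes were higher and 1054 lower. On day 14, 8 were higher and 0 lower (median 1.15), where 324 of all genes were higher and 292 lower. The proximal gate markers ran from 36.0 to 408 UPM in the distal sums of the 10 libraries. The part of proximal RNA in these changes was not tested.

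The 29 other segment factors did not move one way: in all tubule cells on day 7, 8 were higher and 6 lower, 14 of 29 called against 35.8% of all genes (median -0.12, against 0.04 over all genes). With library totals alone 15 were higher and 4 lower, against 7645 higher and 1063 lower of 15707 genes. Elf5 (2.84, SE 0.429, adjusted p = 0.000583) and Elf3 (2.44, SE 0.284), both of the ETS family, rose most. Esrrb, a relative of Esrra (-2.73, SE 0.392), and Ppara, a nuclear receptor of fatty acid use (-2.50, SE 0.273), fell most. Elf3 was higher in proximal cells (2.65) and in distal cells (2.10), and Ppara lower in both (-1.95 and -2.08). Elf5 (2.67) and Esrrb (-3.24) were called in distal cells but not in proximal cells (0.145 and -1.05). Proximal cells made up 73.3% of the tubule cells of the control and 23.0 and 27.7% on day 7. Principal cells made up 20.8% of the distal cells of the control and 58.4 and 54.7% on day 7. The part of this makeup in the changes of these factors was not tested.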

How the data were processed

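Drop-seq UMI counts per gene and cell were measured in 10 mouse kidney cortex libraries and deposited by the authors as whole-number counts that were not normalized. Bowtie2 2.2.7 and the build mm10 are named, per the submitters' processing notes. The counter, the annotation, the use of strand and the filters are not given in the sources used here. The day 11 tables reach down to 300 genes per barcode and the others to 500, so at least 500 UMIs and 500 genes were required, with at most 50% mitochondrial UMIs. The highest 5% of Scrublet doublet scores of each library were left out (scanpy 1.11.5), since the automatic threshold marked 0 to 6 cells per library. Counts were summed per library and gate and tested with edgeR 4.0.16 in R 4.3.3 (quasi-likelihood, TMM, filterByExpr, Benjamini-Hochberg over all genes tested, 0.05), and a standard error is the log2 change over the root of its F. Day groups shared 1 fit, and segments were compared with library as a block. DESeq2 1.42.0, other scalings, filters, gates and left-out libraries were alternatives. The fits were checked on simulated counts in which a small set of genes changed, as many up as down. That check does not bear on the choice of scaling. The 7 factors and all gene lists were chosen with earlier results of these data known. Of the listed genes that are not among the 7, those named are the ones with the largest absolute change among those called in the comparison, 4 of each list by day (all tubule cells, day 7 against control) and, of the other factors, 3 per direction by segment. Likeness was read on log2(UPM + 10) over genes with a mean of at least 5 UPM, gate markers and the 7 factors left out. Intervals are exact, cover counting error only and treat UMIs as independent molecules.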

Additional observations from a re-analysis of the deposited data

Results flagged for a closer look

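The change of Maf from day 7 to day 11 differed between proximal and distal cells by a test of that difference: the proximal change was -0.93 on the log2 scale relative to the distal one (SE 0.237, adjusted p = 0.00901, edgeR). In distal cells Maf had 32.2 and 19.3 TMM-scaled UPM on day 7 and 40.2 and 57.3 on day 11, and in proximal cells 1010.4 and 679.7 on day 7 and 896 and 741 on day 11. The call was lost without day 11 replicate 2 (-0.49) and with DESeq2 (-0.96). Straight cells, where Maf is lower, made up 3.41 and 32.3% of the placed proximal cells on day 7 and 66.6 and 75.2% on day 11. In convoluted-gated cells alone Maf changed by 0.29 from day 7 to day 11 (SE 0.235, not called), against -0.043 in all proximal cells and 0.96 in distal cells. The distal values lie below those of Maf in endothelial cells, and the proximal gate markers in the distal sums went up over the same days (53.3 and 36.0 UPM on day 7, 207 and 408 on day 11). The part of either in the difference was not tested.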

How the results depend on the processing

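Numbers below are how many of the 7 factors were called, unless a gene is named. Without any 1 library in turn the count ran from 0 to 2 for day 11 and 0 to 1 for day 14 against the control and 0 to 4 for day 14 against day 11 in all tubule cells. In proximal cells it ran from 0 to 3, from 1 to 2 and from 0 to 2 for day 11 against control, day 11 against day 7 and day 14 against day 11. In distal cells it ran from 1 to 3 for day 7, from 0 to 3 for day 11 and from 0 to 1 for day 14 against the control, from 1 to 4 for day 11 against day 7 and from 0 to 2 for day 14 against day 11. It ran from 0 to 1 and from 1 to 2 for the difference in change at day 7 and day 11, and from 1 to 3 for convoluted against straight cells.

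In all tubule cells, day 11 against control gave 4 with no count filter, 2 with DESeq2 and 5 with only the groups compared. Day 14 against control gave 1 with DESeq2's size factors and 2 each with no filter, DESeq2 and only the groups compared, and day 14 against day 11 gave 2 with no filter and 3 with only the groups compared. In proximal cells, day 7 against control gave 1 with library totals and 1 in convoluted cells, and day 11 against control gave 1 with DESeq2 and 0 in convoluted cells. Day 11 against day 7 gave 4 with library totals and 1 each with no filter, DESeq2, 3 gate markers, only the groups compared and convoluted cells. Day 14 against day 11 gave 0 with DESeq2's size factors, 3 gate markers and convoluted cells, and 2 with no filter and with only the groups compared.

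In distal cells, day 7 against control gave 1 with DESeq2, with a mitochondrial limit of 25% and with only the groups compared, and 0 in the thick limb alone. Day 11 against control gave 1 with DESeq2, the 25% limit and the thick limb alone, and 5 with only the groups compared. Day 14 against control gave 1 with no filter, library totals, 3 gate markers and only the groups compared. Day 11 against day 7 gave 2 with DESeq2 and the thick limb alone and 0 in principal cells alone, and day 14 against day 11 gave 1 with DESeq2 and library totals and 0 in the thick limb alone. The difference in change gave 1 at day 7 with no doublet removal and with the 25% limit, and 0 at day 11 with DESeq2. Convoluted against straight cells gave 3 with library totals and 2 with no filter and with the 25% limit. The cause of these moves was not tested.

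Directions turned as follows. In distal cells Gata3 turned in principal cells alone on day 7 against control (-0.64) and day 11 against day 7 (0.17), and Emx1 in the thick limb alone, where it was near its endothelial level, on day 7 (1.87) and day 11 (2.05) against control. The others that turned were not called in the fit reported. Tfap2b in all tubule cells on day 7 became 0.81 with library totals, 0.00996 with 3 gate markers, 0.28 with the 25% limit and 0.00091 with only the groups compared, and Tfcp2l1 0.73 and 0.0355 with library totals and the 25% limit. Maf in proximal cells on day 7 became 0.62 with library totals and ran from -0.57 to 0.0131 without 1 library, and Hnf4a from day 7 to day 11 became -0.29 with library totals. Esrra in proximal against intercalated cells became -0.17 with DESeq2's size factors and with DESeq2, -0.38 with library totals, -0.0280 with no doublet removal, -0.0934 with the 25% limit, -0.0405 with no library block, and ran from -0.20 to 0.0503 without 1 library. Tfcp2l1 in the thick limb against the distal convoluted tubule became -0.0222 with DESeq2's size factors, -0.0212 with DESeq2, and -0.16 in control and day 14 libraries only. Gata3 became 0.39 there for proximal against thick limb cells. In the distal convoluted tubule against intercalated cells Gata3 became -0.16 with library totals, -0.12 with 3 gate markers, -0.14 with no library block, -0.0516 in control and day 14 libraries only, and ran from -0.0248 to 0.19 without 1 library. Of 87 other day and difference tests of a factor, not called in the fit reported, 40 changed sign under at least 1 alternative (91 values, 14 of them with library totals), and 30 were called under at least 1. The 1 that changed sign and was called was Tfcp2l1 in proximal cells on day 7 with library totals (0.69). Scaling by library totals moved the split of all genes in proximal against distal cells from 4689 higher and 2770 lower to 2947 and 4341. On day 7 against the control it moved from 2679 and 2949 to 7645 and 1063 in all tubule cells, from 2543 and 2622 to 6476 and 786 in proximal cells, and from 1614 and 1707 to 5206 and 705 in distal cells.

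The replicate numbers did not pair libraries (r of deviations 0.052, -0.038 and -0.061 over 15707 genes). With the replicate number as a block over days 7, 11 and 14, the counts for day 11 against day 7 and day 14 against day 11 were 6 and 1 in all tubule cells, 2 and 1 in proximal cells, and 3 and 2 in distal cells. The lone control and the small day 7 gates (328 and 536 proximal cells) limit what can be seen.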
